A study of Mus musculus with 55 samples.

Results

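Active regulatory DNA in Setd8-LKO livers given TCPOBOP was followed with 2 chromatin maps, H3K27ac (acetylated lysine 27 of histone H3) and ATAC-seq (accessibility), and the regions of each map were divided by whether they overlapped a region of the other by at least 1 bp. The H3K27ac list held 27752 peaks and the ATAC list 23386 accessible regions, so that 51138 of the 173819 regions in the 12 lists of the series entered this comparison. A total of 10824 H3K27ac peaks overlapped an accessible region and 16928 did not. Conversely, 10113 accessible regions overlapped an H3K27ac peak and 13273 did not. These 4 classes are called H3K27ac shared, H3K27ac only, ATAC shared and ATAC only.

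The mice were C57Bl6 males of 45 to 50 days. Setd8-LKO mice carry Setd8 lox/lox alleles and Alb-Cre, a Cre driven by the albumin promoter, so that the methyltransferase Setd8 (also called Kmt5a) is lost in hepatocytes but not by design in other liver cells. They had received TCPOBOP, an agonist of the nuclear receptor CAR, at 3 mg/kg by intraperitoneal injection and were studied after 24 h. The wild type (WT) livers set beside them carried no deletion and received no TCPOBOP, so in every comparison made here genotype and treatment change together and their parts cannot be told apart. WT livers given TCPOBOP were measured by RNA-seq, in a table of their own that was not used here. The H3K27ac list came from 3 Setd8-LKO livers and the ATAC list from 5, against 3 and 3 WT livers, and RNA was measured in 4 Setd8-LKO and 5 WT livers. Whole liver chromatin and RNA were used, and Setd8-LKO livers contain dying hepatocytes and small mononuclear cells beside hepatocytes. Each condition has 1 list per assay. The overlaps therefore have no replicate check and were not tested, and the 95% Clopper-Pearson intervals given with shares cover counting error only. The files give no read depth behind the lists.

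Acetylation of H3K27 is placed by the acetyltransferases p300 and CBP on nucleosomes next to active promoters and enhancers. ATAC-seq uses a transposase that inserts adapters where DNA is free of nucleosomes, so its regions are the gaps in which transcription factors bind, and the acetylated nucleosomes lie at their edges. Accessible DNA without acetylation is found at primed or silent elements and at sites of the insulator protein CTCF, which together with cohesin (of which Smc3 is a subunit) anchors chromatin loops. In hepatocytes FOXA, HNF4A and C/EBP factors open liver enhancers, while ETS, Sp/KLF, NRF1 and NF-Y factors bind at CpG-rich promoters.

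The 200-bp windows printed here, 2 from each kind of region, are examples of sequence. They lie at the middle of the accessible region, or at the summit of an H3K27ac-only peak, and were read from the plus strand of GRCm38, the same assembly as mm10. They were taken by fold enrichment (the signal of a region over the local background expected by the peak caller). This makes them strong members and not typical ones. Windows that held an annotated exon or lay on certain chromosomes were passed over. The centring differs between the kinds as well, so the windows do not measure how the classes differ. Capitals mark a match to 1 of 10 motifs searched on both strands.
Shared, Cnep1r1 promoter, chr8:88118550-88118749: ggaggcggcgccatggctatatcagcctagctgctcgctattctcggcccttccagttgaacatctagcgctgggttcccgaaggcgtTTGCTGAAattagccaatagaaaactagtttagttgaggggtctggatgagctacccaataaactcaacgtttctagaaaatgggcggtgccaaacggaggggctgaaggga
Shared, Peli1 promoter, chr11:21091087-21091286: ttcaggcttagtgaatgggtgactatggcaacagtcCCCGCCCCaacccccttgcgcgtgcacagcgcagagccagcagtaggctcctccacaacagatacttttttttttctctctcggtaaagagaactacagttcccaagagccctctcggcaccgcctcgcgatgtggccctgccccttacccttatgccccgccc
H3K27ac only, Irf2 promoter, chr8:46741098-46741297: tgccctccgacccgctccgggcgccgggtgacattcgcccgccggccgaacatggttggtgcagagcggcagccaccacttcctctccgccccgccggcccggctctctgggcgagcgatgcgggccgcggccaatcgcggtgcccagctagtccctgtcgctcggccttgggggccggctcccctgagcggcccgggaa
H3K27ac only, Susd6 promoter, chr12:80790821-80791020: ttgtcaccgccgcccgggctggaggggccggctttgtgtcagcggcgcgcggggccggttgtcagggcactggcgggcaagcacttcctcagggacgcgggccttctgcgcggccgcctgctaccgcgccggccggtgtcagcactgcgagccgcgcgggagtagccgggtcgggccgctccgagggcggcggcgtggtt
ATAC only, 748065 bp from Tpm3-rs7, chr14:114062737-114062936: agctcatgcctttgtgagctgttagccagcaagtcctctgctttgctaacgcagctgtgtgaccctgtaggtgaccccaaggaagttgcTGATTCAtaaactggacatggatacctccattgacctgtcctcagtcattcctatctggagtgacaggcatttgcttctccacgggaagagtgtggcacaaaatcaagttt
ATAC only, 67827 bp from Cenpw, chr10:30132399-30132598: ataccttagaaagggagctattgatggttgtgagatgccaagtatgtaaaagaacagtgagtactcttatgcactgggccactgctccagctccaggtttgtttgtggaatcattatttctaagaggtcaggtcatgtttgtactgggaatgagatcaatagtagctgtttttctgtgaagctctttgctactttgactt
The Cnep1r1 window (accessible fold enrichment 12.1, paired H3K27ac peak 51.5) held 10 CpGs and a C/EBP match, and the Peli1 window (12.4 and 50.8) held 10 CpGs and an Sp/KLF match. The Irf2 and Susd6 windows, at H3K27ac fold enrichments of 56.7 and 56.4, were 75.5% and 76.5% G or C with 26 and 30 CpGs and no motif match. The ATAC-only windows, at fold enrichments of 15.2 and 15.0, were 49.0% and 41.0% G or C, with 2 CpGs and an AP-1 match in the former and no CpG and no match in the latter.

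Fewer than 1 in 2 regions of either map lay on a region of the other. The shared part was 39.0% of H3K27ac peaks (38.4 to 39.6) and 43.2% of accessible regions (42.6 to 43.9). H3K27ac peaks covered 20.7 Mb and accessible regions 7.31 Mb. They had 2.60 Mb in common, which was 12.6% of the acetylated and 35.6% of the accessible sequence, and a shared pair overlapped by a median of 192 bp. Most shared peaks had a single partner: 10467 H3K27ac peaks met 1 accessible region, 352 met 2 and 5 met 3. On the other side 9047 accessible regions met 1 H3K27ac peak and 1059 met 2. Over chromosomes 1 to 19 and X the share ran from 36.0% on chromosome 19 to 43.4% on chromosome 16 for H3K27ac, and for accessible regions from 39.3% on chromosome 13 to 52.0% on chromosome 7.

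Shared regions were longer than unshared ones in both maps. The median length was 744 bp (quartiles 473 and 1157) for H3K27ac shared and 480 bp (317 and 796) for H3K27ac only, and it was 342 bp (245 and 482) for ATAC shared and 229 bp (177 and 300) for ATAC only. Fold enrichment, compared between the classes of a map, went in opposite directions in the maps. The H3K27ac list holds narrow peaks with a summit and the ATAC list broad regions without a summit. Their fold enrichments may therefore be unlike measures, and whether the value of a broad region depends on its length was not tested. H3K27ac peaks on accessible DNA had the higher median, 17.3 (quartiles 9.50 and 40.9) against 9.84 (7.41 and 20.0). Accessible regions under an H3K27ac peak had the lower median, 6.46 (5.31 and 7.74) against 7.83 (6.51 and 9.20) for those without. The direction for accessible regions depended on the measure, because their median −log10 p was 27 when shared and 25.6 when not, while for H3K27ac it was 103 and 42.5. The strongest H3K27ac peaks were found in either class, with maxima of 58.2 shared and 58.4 unshared, and so were the strongest accessible regions, at 16.1 and 15.2.

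**Figure D1:**
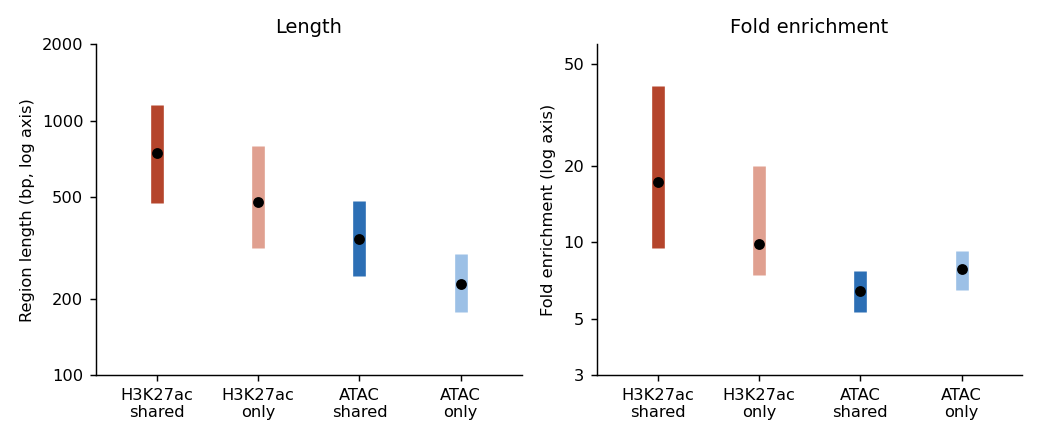
Length in bp and fold enrichment (both on log axes) of the 4 classes in Setd8-LKO livers given TCPOBOP, with a point at the median and a bar from the lower to the upper quartile. In both maps the shared class sits at the greater length, while for fold enrichment it is higher for H3K27ac (17.3 against 9.84) and lower for accessible regions (6.46 against 7.83).

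Ordering the regions by fold enrichment showed the same contrast. From the weakest to the strongest quintile of H3K27ac peaks the shared percentage was 21.6, 28.9, 38.6, 49.1 and 56.8. For accessible regions, in the same order, it was 66, 53.8, 42.7, 32.1 and 21.7. The median length of H3K27ac peaks rose along the same order from 329 to 1122 bp, but that of accessible regions was 264 bp in the weakest and 253 bp in the strongest quintile. When every region was replaced by a 500-bp window around its summit or middle, a setting chosen after the data had been seen, the H3K27ac percentages became 42.4, 41.7, 40.8, 45.2 and 41.8 and the rise was gone. The accessible percentages were 65.0, 54.3, 43.9, 33.9 and 23.4 in such windows, so their fall along fold enrichment remained. The order was still by the fold enrichment of the regions as called, so the windows cannot separate the fall from called length. Ordered by −log10 p instead, the accessible percentages were 40.2, 39.6, 39.4, 45.3 and 51.7, so the fall held for fold enrichment and not for this measure. In regions as called, along fold enrichment, it was steepest away from promoters, where the shared percentage went from 49.5 in the weakest to 5.61 in the strongest quintile, while at promoters it went from 84.7 to 66.6.

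**Figure D2:**
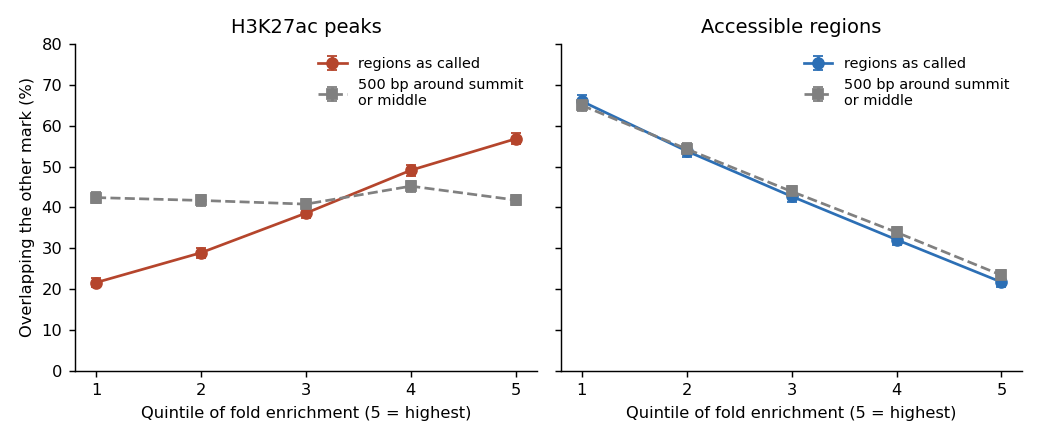
Percentage of H3K27ac peaks and of accessible regions that overlap a region of the other map, by quintile of fold enrichment from weakest (1) to strongest (5), for regions as called and for 500-bp windows, with 95% Clopper-Pearson intervals. The H3K27ac line rises from 21.6% to 56.8% as called and stays between 40.8% and 45.2% in windows of equal length, while the accessible line falls in both forms. Both forms are ordered by the fold enrichment of the regions as called.

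The classes differed in where they lay. A region was placed at a promoter when it came within 1000 bp of any annotated transcript start, and otherwise in an exon, an intron or between genes. Promoters held 68.7% of H3K27ac shared (67.8 to 69.6), 51.9% of H3K27ac only (51.2 to 52.7), 69.1% of ATAC shared (68.2 to 70.0) and 14.4% of ATAC only (13.8 to 15.0). Among H3K27ac peaks the order of the classes turned, to 58.0% and 59.0%, when regions within 500 bp of each other counted as shared. Thus unshared accessible regions were mostly remote: 44.9% lay in introns and 34.8% between genes, against 15.1% and 13% of the shared ones. Read from the promoters, 78.5% of accessible promoter regions (6986 of 8898) carried an H3K27ac peak but 45.8% of promoter H3K27ac peaks (7436 of 16224) carried an accessible region. Away from promoters these shares were 21.6% (3127 of 14488) and 29.4% (3388 of 11528). Among distal regions the median distance to the nearest transcript start was 9109 bp for H3K27ac shared, 6468 bp for H3K27ac only, 8692 bp for ATAC shared and 10798 bp for ATAC only. A small group of 289 ATAC-only regions (2.18%) lay more than 100 kb from any start.

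At promoters the fold enrichment of H3K27ac was 31.8 at the median with accessibility and 16.5 without, and away from promoters 9.33 and 8.0. Accessible regions were lower with acetylation in both places, 6.66 against 7.44 at promoters and 6.01 against 7.90 elsewhere. The promoter with the highest unshared H3K27ac peak was that of Rac1, which encodes a small GTPase (chr5:143527091-143528608, fold enrichment 58.4), and the nearest accessible region was 19806 bp away. Tpm1, encoding a tropomyosin (57.2, gap 1886 bp), and Pak2, encoding a kinase activated by Rac1 (56.9, gap 20158 bp), followed the same pattern. Of the pairs that were high in both maps, Tusc1 had an H3K27ac peak at chr4:93334682-93335859 with a fold enrichment of 56.4 and an accessible region of 264 bp at its edge with 11.4. Prdm4, a zinc finger gene (52.1 and 12.6), and Ylpm1 (51.3 and 13.6) were also promoters. The highest ATAC-only region was at the promoter of Ifi27l2b (15.2, 22277 bp from H3K27ac), and those next in order lay 748065 bp from Tpm3-rs7, 67827 bp from Cenpw and 190375 bp from Gpc6. The longest H3K27ac peak of all, 9416 bp, was shared and covered the promoter of Setd1b, a histone H3K4 methyltransferase gene, and the longest unshared one, 7451 bp, covered that of the transcription factor gene Klf15. The longest ATAC-only entry, 4558 bp at a fold enrichment of 1.94, was mitochondrial DNA, which carries no histones.

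Many unshared H3K27ac peaks stood close to accessible DNA without touching it. Their median gap to the nearest accessible region was 4991 bp, 20.7% lay within 200 bp and 29.5% within 1000 bp. ATAC-only regions were farther from acetylation, with a median gap of 17532 bp and 13.9% within 200 bp. Even in shared pairs the acetylation was centred beside the opening. An H3K27ac summit lay inside 28.1% of ATAC-shared regions (2846) and beside, within 1000 bp but not inside, 70.1%, and 18.8% (1901) had summits on both sides. Around promoter accessible regions the density was 55.7 H3K27ac summits per 1000 regions in each 100 bp at the centre and 104 at 200 to 300 bp from it. Around distal ones it was 14.2 at the centre and 52.7 at 300 to 400 bp, and beyond 2000 bp it fell to 3.61 and 4.22. The acetylation summits therefore formed a peak on each side of a dip.

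**Figure D3:**
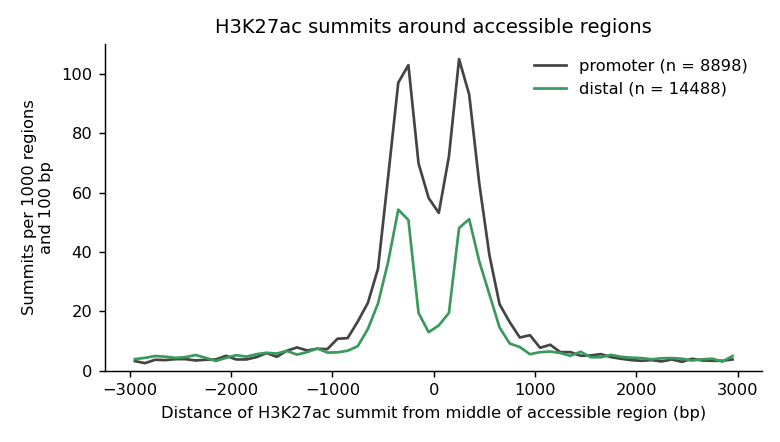
H3K27ac summits per 1000 accessible regions and 100 bp against distance in bp from the middle of the region, for 8898 promoter and 14488 distal accessible regions. Both lines dip at the centre (55.7 and 14.2) and are highest at 200 to 300 bp and at 300 to 400 bp (104 and 52.7, mean of the sides).

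Other maps from the same condition divided the classes further. CTCF peaks overlapped 39.0% of H3K27ac shared, 33.4% of H3K27ac only, 31.8% of ATAC shared and 5.62% of ATAC only. For the cohesin subunit Smc3 these shares were 59.1%, 51.3%, 61.4% and 5.78%. Most of this lay at promoters, where Smc3 met 81.6% of ATAC shared and 15.4% of ATAC only regions, while away from promoters it met 16.3% and 4.15%. The H3K27ac classes were the other way round away from promoters, where Smc3 met 14.9% of shared and 24.0% of unshared peaks and CTCF met 8.12% and 13.9%. Lamin A/C islands, domains at the nuclear edge, covered 27.8% of chromosomes 1 to 19, X and Y. They touched 0.711% of H3K27ac shared, 2.47% of H3K27ac only, 0.752% of ATAC shared and 1.95% of ATAC only. H4K20Me3 islands, which mark heterochromatin, covered 23.2% of these chromosomes and touched 2.14% to 2.61% of every class. Every class thus met both kinds of island far less often than their cover. These assays came from 2 livers each for CTCF, Smc3 and H4K20Me3 and 4 for Lamin A/C, with 1 list per assay. The paper reports that most CTCF sites gained in these livers against WT lacked the canonical motif and were weaker. It proposes that CTCF and Smc3 bind there without specificity. Gained and retained sites were counted alike in the overlaps given here.

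**Figure D4:**
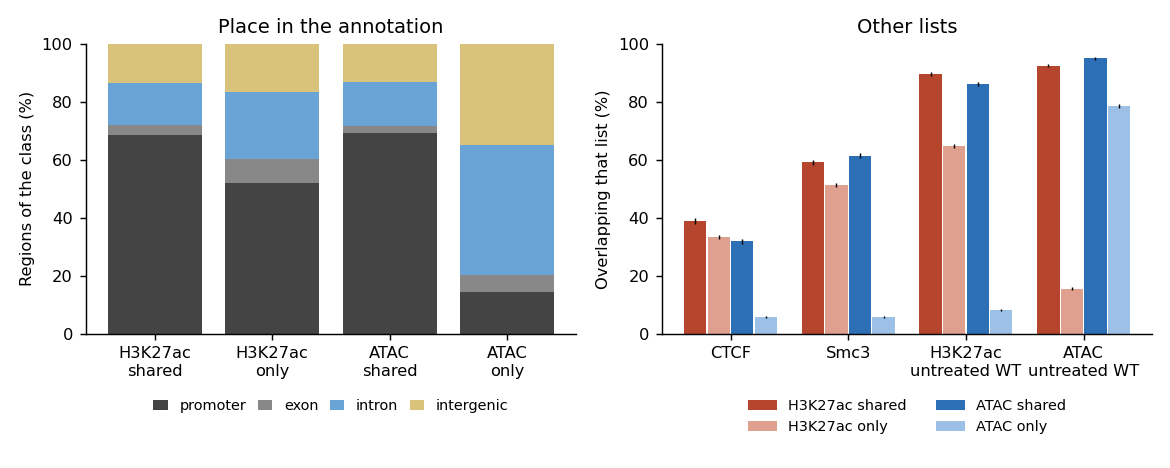
Left, percentage of each class at promoters, in exons, in introns and between genes. Right, percentage of each class that overlaps the CTCF and Smc3 lists of Setd8-LKO livers given TCPOBOP and the H3K27ac and ATAC lists of untreated WT livers, with 95% Clopper-Pearson intervals. ATAC only is the class with the lowest promoter share (14.4%) and the lowest overlap with CTCF (5.62%) and Smc3 (5.78%).

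Base composition followed these places. Windows of 200 bp at summits or middles were 63.0% G or C at the median in H3K27ac shared, 59.5% in H3K27ac only, 58.0% in ATAC shared and 49.5% in ATAC only, while windows moved by 2000 bp were 45.0%, 47.0%, 45.0% and 45.0%. CpGs per window averaged 13.1, 12, 10.0 and 3.10. The distal members of the 4 classes stood closer together, at 50.5%, 50.0%, 50.5% and 49.0%. Repeats took 5.89% of the bases in ATAC shared and 9.33% in ATAC only windows, against 27% and 26.2% after the move.

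Motif matches differed between shared and unshared accessible regions. C/EBP matches (TTGCNNAA) were in 9.41% of ATAC shared and 18.4% of ATAC only windows, against 7.78% and 8.22% in the moved windows. FOXA matches (TGTTTAC) were in 3.70% and 7.90% (moved 2.89% and 2.90%), and HNF4A (CAAAGTCCA) in 1.55% and 2.58% (0.326% and 0.332%). Over all accessible regions, promoters included, matches of these liver factors were thus more frequent in the unshared class. Promoter motifs went the other way. Sp/KLF matches (CCCGCCCC) were in 12% and 1.67% (0.930% and 0.731%), ETS (CCGGAAGT) in 4.36% and 0.414% (0.188% and 0.173%), and NF-Y (CCAATCA) in 6.41% and 3.50%. NRF1 matches (GCGCATGCG) were in 1.82% and 0.158%. The promoters of protein-coding genes, in windows of the same length, held Sp/KLF in 13.1% and ETS in 3.53%.

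Among distal regions alone the accessible classes were closer, and the unshared class was not the higher for every factor. FOXA was in 7.36% of shared and 8.31% of unshared windows, HNF4A in 3.36% and 2.75% and AP-1 (TGANTCA) in 11.3% and 10.7%. C/EBP stood at 15.5% (14.2 to 16.8) and 18.9% (18.2 to 19.6). The CTCF consensus was farther apart in distal regions, with 0.448% (0.245 to 0.751) of shared and 2.13% (1.87 to 2.41) of unshared windows. Among all ATAC-only windows 280 held the consensus, and 121 of them (43.2%) lay on a CTCF peak, against 4.81% of those without it. Among ATAC-shared windows 40 held it, and 28 of them (70.0%) lay on a CTCF peak, against 31.7% of those without it (3189 of 10073). Most ATAC-shared regions on a CTCF peak thus had no match to the consensus in their window. Over all H3K27ac summits, promoters included, FOXA was in 1.44% of shared and 1.33% of unshared windows (moved 2.47% and 2.49%), while at distal summits it was in 2.27% of shared windows (moved 2.27%) and 1.96% of unshared ones (moved 2.46%). A match is a string of letters and not a measured binding site.

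In untreated WT livers a larger share of H3K27ac peaks lay on accessible DNA. In the WT lists 47.2% of H3K27ac peaks (46.6 to 47.8, 13208 of 27983) and 44.5% of accessible regions (43.9 to 45.1, 12153 of 27307) were shared, against 39.0% and 43.2% in Setd8-LKO livers given TCPOBOP. The order of the classes was the same in WT, with median fold enrichments of 19.2 and 9.03 for H3K27ac and 6.78 and 8.15 for ATAC. The ATAC lists came from different numbers of livers, and no test of the difference between conditions was possible with 1 list each. Of the H3K27ac-only peaks of Setd8-LKO livers, 64.9% overlapped a WT H3K27ac peak and 15.4% a WT accessible region. Both WT marks were present at 13.8% of them (2333), whereas no accessible region of Setd8-LKO livers touched these peaks. Such a region may still lie near them, since 20.7% of all H3K27ac-only peaks had an accessible region within 200 bp. Neither WT mark was present at 33.5% of H3K27ac-only peaks (5671), of which 37.1% were at promoters and whose median fold enrichment was 8.15. Of the ATAC-only regions 78.5% overlapped a WT accessible region and 8.18% a WT H3K27ac peak, and 1027 (7.74%) lay on both. Shared regions were called in WT more often, since 92.5% of H3K27ac shared and 95.0% of ATAC shared regions lay on WT accessible DNA, and 89.6% and 86.2% on WT acetylation.

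Seen from the genes, protein-coding promoters seldom had accessibility without acetylation. Of 21938 protein-coding genes, 7603 (34.7%) had both marks within 1000 bp of a transcript start, 5294 (24.1%) H3K27ac only, 518 (2.36%) accessibility only and 8523 (38.9%) neither. The marks overlapped in 7091 (93.3%) of the promoters with both. For each gene the highest fold enrichment and the summed length of its promoter peaks were taken. For H3K27ac the medians over genes were 37.1 and 1047 bp with both marks, against 30.9 and 865 bp with H3K27ac only. Of genes with both marks 26.0% had 2 or more H3K27ac peaks, against 15.9% of those with H3K27ac only, and both values can rise with the number of peaks. By the highest accessible region of each gene, the few promoters with accessibility only stood at 8.30, above the 6.84 of promoters with both. Of 5854 long intergenic RNA genes 86.0% had neither mark.

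Most genes of the hepatocyte lists had acetylation at the promoter. Every hepatocyte transcription factor gene had H3K27ac within 1000 bp of at least 1 transcript start, 7 of 16 with accessibility and 9 without. Hnf4a, the central factor of hepatocyte identity, had a peak of 3008 bp and 20.0 at the promoter of the inner start (chr2:163547157-163550164) with an accessible region of 144 bp at its edge (4.04). At the outer start of Hnf4a lay an accessible region of 196 bp (5.77) that no H3K27ac peak touched. Foxa3 (46.0 and 4.14) and Onecut1 (48.3 and 4.41) also had both marks. Cebpa (53.5), Cebpb (54.0), Rxra (54.0), Foxa1 (50.1), Ppara (49.9) and Foxa2 (44.0) had strong acetylation with no accessible region called. Of 24 plasma protein genes 14 had both marks and 9 H3K27ac only. Among the latter were Apoe (43.1) and Apoh (46.0), which encode apolipoproteins. Albumin (Alb) was the exception with neither mark: no H3K27ac peak was called within 10 kb of it in Setd8-LKO livers, against 6 in WT, the strongest at 21, while 2 accessible regions were called against 3 in WT. Of 21 metabolic genes 15 had both marks and 6 H3K27ac only, among the latter Fasn (fatty acid synthase, 40.3), Ass1 (urea cycle, 23.0), Pck1 (gluconeogenesis, 10.3), Cyp8b1 (bile acid synthesis, 7.83) and Tat (tyrosine breakdown, 5.80). Cyp7a1, the rate-limiting enzyme of bile acid synthesis, had a peak of 4.62 and an accessible region of 3.56 that did not touch, with 1 H3K27ac peak within 10 kb against 6 in WT.

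The targets of CAR were split. Of 26 genes of xenobiotic metabolism 13 had both marks, 6 H3K27ac only, 1 accessibility only and 6 neither. Cyp2b10, the classical CAR target, had an accessible region of 261 bp and 3.35 at chr7:25897430-25897690 between H3K27ac peaks of 1917 bp (16.3) and 2089 bp (14.4), of which the latter touched it, and 11 H3K27ac peaks lay within 10 kb of the gene where the WT list had 0. Por, which passes electrons to cytochromes P450, had 29.0 and 4.32, and Ephx1, an epoxide hydrolase, 30.7 and 3.41. Alas1, which starts haem synthesis (48.2), Cyp1a2 (38.7) and the transporter Abcc3 (20.7) had H3K27ac only. Aldh1a7 had accessibility only (5.48), and Cyp2b9, Cyp2b13, Cyp2c37, Cyp2c54, Ugt1a1 and Gadd45b had neither. The Cyp2b, Cyp2c and Ugt1a genes have near-identical copies in which reads may be lost or shared, and that was not tested.

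Accessible regions at cell cycle promoters had a median fold enrichment of 7.45. This was near the 6.84 of all protein-coding promoters with both marks and the 7.02 of the list of chromatin genes. The hepatocyte lists and the CAR group were the lower ones. They stood at 3.64 for plasma proteins, 3.66 for hepatocyte markers, 4.16 for metabolism, 4.41 for transcription factors and 4.54 for the CAR group. Of the 25 cell cycle genes 15 had both marks and 8 H3K27ac only. Ccna2, encoding cyclin A2, stood at 32.4 and 12.9, and Mcm3, part of the replicative helicase, at 28.6 and 12.1. Top2a, a topoisomerase of dividing cells, had a short peak of 281 bp (12.5) on an accessible region of 7.81, where WT livers had accessibility (8.90) and no H3K27ac peak within 10 kb. Bub1b, a spindle checkpoint kinase, had accessibility only (9.73), and Mcm2 neither. Of 20 p53 target and senescence genes 13 had both marks and 5 H3K27ac only. Cdkn1a, which encodes the cell cycle inhibitor p21, had an acetylated stretch of 2125 bp at 30.2 over an accessible region at 5.48, against 608 bp at 11.0 and 5.41 in WT. Gadd45a (50.7 and 7.12), Hmgb1 (52.8 and 8.52) and Ccng1 (31.7 and 9.25) had both marks, Mdm2 (51.8), Phlda3 (51.8) and Bax (47.0) H3K27ac only, Ccl2 accessibility only (8.62) and Il6 neither. All 15 chromatin genes had H3K27ac at a promoter, 10 with accessibility. At Lmna, which encodes Lamin A/C, peaks of 51.0 and 14.8 were shared with accessible regions of 5.48 and 7.03, and a peak of 28.9 was not. Kmt5a, the gene deleted in hepatocytes, had a shared peak of 19.1 over an accessible region of 5.39 and an unshared peak of 50.6.

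Genes of cells other than hepatocytes varied by list, beside the 38.9% of all protein-coding genes that had neither mark. All 11 markers of Kupffer cells and macrophages and all 10 of blood leukocytes had neither, as did 6 of 8 markers of stellate cells and fibroblasts, 4 of 8 of endothelial cells and 2 of 6 of cholangiocytes. Among 7 hepatocyte markers 4 had both marks, 2 H3K27ac only and 1, Alb, neither. The cholangiocyte markers Sox9 (44.8), Epcam (27.2), Krt7 (11.5) and Cftr (10.2) and the endothelial markers Ptprb (30.9), Kdr (29.0) and Clec4g (7.67) had H3K27ac only, and Cdh5 accessibility only (7.94). Of 11 oncofetal and progenitor genes 6 had neither, among them Afp, Gpc3 and H19, and Snai1 had both (31.8 and 6.19). Members named beyond a fixed rule were chosen after their values had been seen. The lists were drawn up with earlier results of these data known, and their counts are descriptions.

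**Figure D5:**
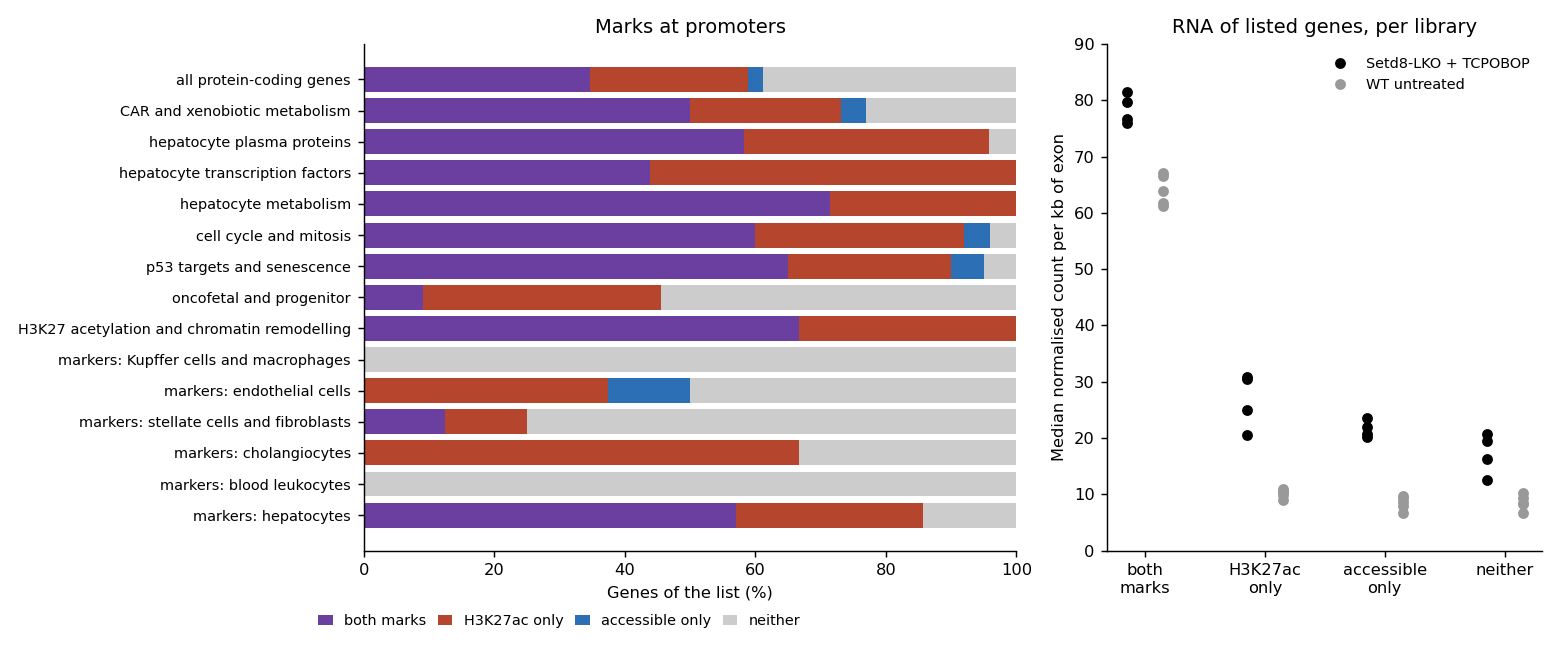
Left, percentage of the genes of each list, and of all protein-coding genes, by promoter class. Right, median normalised count per kb of exon of listed protein-coding genes, by promoter class and RNA library (4 labelled Setd8-LKO, 5 WT). The class with both marks has the highest level in every library, 75.9 to 81.5 in Setd8-LKO and 61.2 to 67 in WT.

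The genes nearest to the regions were counted as well. The 16928 H3K27ac-only peaks had 8515 nearest genes, led by Arid5b with 22 peaks, Gse1 with 21, Nedd4l and Plec with 19 each and Ppara with 18. The shared H3K27ac peaks were led by Rreb1, a zinc finger gene, with 19. Among ATAC-only regions the counts were highest for genes with distant regions, with 20 nearest to Sox9 at a median distance of 287372 bp and 16 nearest to Myc at 261727 bp. Prkce had 16, Irs2 15 and Bcor and Nav2 14 each. A nearest gene is a matter of position and was not tested as a target.

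RNA gave a measure that did not enter the classes. The table listed 3900 genes that the authors had selected, so the share of changed genes says nothing about the classes and only levels and directions are described. Of 3726 genes tested, 3651 (98.0%) differed between untreated WT libraries and those labelled Setd8-LKO in edgeR's quasi-likelihood test, that is, with a Benjamini-Hochberg adjusted p below 0.05 and a change of 1 or more on the log2 scale in either direction. A total of 2178 (58.5%) were higher and 1473 (39.5%) lower in Setd8-LKO. Kmt5a, which encodes Setd8, had normalised counts of 1341, 1465, 1338 and 1313 in the Setd8-LKO libraries and 613, 567, 761, 563 and 715 in WT, so the targeted gene was higher in the libraries named for its deletion (log2 fold change 1.08 ± 0.14 SE, adjusted p = 3.04e-05) and not lower. Counts over the whole gene do not show which exons were read, and the libraries are called Setd8-LKO here by their label. Kmt5a was not past the threshold with DESeq2, nor with its size factors in edgeR (log2 fold change 0.27 in both). In bulk tissue, fewer cells of a type and less RNA per cell cannot be told apart.

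Genes with both marks at the promoter had the highest RNA level among the listed protein-coding genes. Levels were taken over protein-coding genes only, 1124 with both marks, 1032 with H3K27ac only, 136 with accessibility only and 690 with neither. The counts of changed genes cover all kinds of listed genes. Their median normalised count per kb of exon was 76.6, 75.9, 79.7 and 81.5 in the Setd8-LKO libraries and 67, 61.2, 63.9, 66.5 and 61.7 in WT. Genes with H3K27ac only stood at 30.5, 30.8, 20.6 and 25 against 9.86, 8.91, 10.9, 10.6 and 10.5. Those with accessibility only were at 21.9, 23.5, 20.2 and 20.8 against 9.73, 8.7, 7.93, 6.64 and 9.42, and those with neither at 20.8, 19.5, 12.6 and 16.3 against 8.41, 6.76, 10.3, 8.26 and 9.33. With these factors of the authors the Setd8-LKO libraries lay above the WT libraries in all 4 classes without overlap, a direction that also reflects which genes were listed and that depended on the scaling. With the size factors of DESeq2 genes with both marks stood at 48 to 75 in Setd8-LKO and 76.6 to 89 in WT, the reverse order. Genes with neither mark then overlapped, at 11.8 to 13.1 and 9.85 to 12.4, and the other classes stayed higher in Setd8-LKO. Under either scaling the class with both marks had the highest level in every library.

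The direction of change differed by promoter class. Of changed genes with both marks 51.5% were higher (651 higher, 614 lower), with H3K27ac only 69.3% (769 and 340), with accessibility only 65.3% (98 and 52) and with neither 58.7% (656 and 461), against 59.7% of all changed genes. DESeq2, which changed the scaling, the test and the filter together, moved the median log2 fold change of all listed genes by -0.80 and gave shares higher of 31.3%, 49.5%, 50% and 40.7%, against 40.1% overall. Its size factors used in edgeR, a setting chosen after the data had been seen, moved the median by -0.86 and gave 30.2%, 46.8%, 48.1% and 36.5%, against 37.4% overall. Genes with H3K27ac only had a higher share than genes with both marks in each of these fits, but whether most genes of a class were higher or lower was not.

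Among genes with both marks Cyp2b10 rose the most. Its normalised counts were 35767, 31592, 66038 and 55164 in the Setd8-LKO libraries and 28, 25, 70, 28 and 106 in WT, a log2 fold change of 9.84 ± 0.61 (SE, adjusted p = 4.34e-07). Akr1b7 (7.44) and Cyp2c39 (7.08), the first an aldo-keto reductase and the other a cytochrome P450, rose next to it. Hsd3b5, a steroid dehydrogenase of male liver, fell from 6989, 8072, 2739, 2914 and 2579 to 5, 2, 5 and 2, a log2 fold change of -10.32 ± 0.63 (SE), and its promoter had both marks. Gm31583 (-7.05) and the sulfotransferase gene Sult2a8 (-6.82, and -7.73 without Setd8-LKO library 3) fell as well. Cdkn1a rose from 17, 35, 78, 50 and 103 to 1961, 1614, 2193 and 1221 (4.94 ± 0.45 SE, adjusted p = 3.55e-06). Top2a rose from 22, 15, 52, 26 and 57 to 675, 770, 730 and 469 (4.25 ± 0.37 SE, adjusted p = 2.88e-06).

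Where H3K27ac stood alone at the promoter, Lif, a cytokine gene, had 53, 70, 14 and 46 against 0 in every WT library, at least 69.6-fold higher when 3 counts over the group are taken as the floor. Ly6d had 5445, 4558, 2645 and 4654 against 8, 10, 30, 13 and 11 (8.19), and Rbm24 291, 212, 75 and 276 against 0, 0, 0, 0 and 2 (8.60, and 10.87 without WT library 5). Cyp7b1, an enzyme of bile acid and oxysterol metabolism, fell from 8659, 7450, 5117, 8790 and 3802 to 130, 125, 446 and 178 (-4.94, and -5.55 without Setd8-LKO library 3). Where accessibility stood alone, Pnliprp1, a pancreatic lipase relative, had 45, 89, 40 and 98 against 0 in every WT library, at least 103-fold higher on the same floor. Myom3 rose (5.54), and Hal, the enzyme that breaks down histidine, fell from 11383, 10865, 12426, 6267 and 11905 to 367, 287, 374 and 412 (-4.87). Bub1b rose as well, from 15, 14, 25, 21 and 39 to 114, 150, 124 and 109 (2.45). With neither mark Krt20, a keratin gene, had 176, 148, 12 and 145 against 0 in every WT library, at least 182-fold higher, and Alb fell from 714846, 914210, 984219, 630727 and 1230909 to 350296, 321973, 302416 and 437673 (-1.34 ± 0.30 SE, adjusted p = 0.00133). Groups did not overlap for any gene named in this paragraph.

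Of all 3726 genes tested 58.5% were called higher and 39.5% lower, and the counts of the lists stand beside these shares. With DESeq2 26.8% of 3895 genes were higher and 40% lower. Only genes in the authors' table, which they had selected, can be counted for the lists. All 20 of the 26 CAR genes found in it were higher, 9 with both marks, 5 with H3K27ac only, 1 with accessibility only and 5 with neither, and 9 of the 20 were called with DESeq2. All 22 cell cycle genes in the table, of 25, were higher (13, 7, 1 and 1 by class; 18 with DESeq2), as were all 13 of the 20 p53 and senescence genes (11, 1, 1 and 0; 10 with DESeq2). The genes in the table were lower for metabolism (14 of the 21 on the list), plasma proteins (8 of 24) and transcription factors (3 of 16), and the others of these lists were not in the table. Among them were Onecut1 (-2.61), Fasn (-2.30), Cyp8b1 (-3.61) and Ass1 (-1.54). Of the 8 listed oncofetal and progenitor genes, 6 were higher, and Cd44 had a log2 fold change of -1.56 that did not pass the test (adjusted p = 0.177 in edgeR). Tat (-1.29) lost its call with the run as a term (-0.99, adjusted p = 0.0664 in edgeR). The median over all listed genes was 1.16, and the medians of these lists ran from -2.24 for the transcription factors to 3.13 for the cell cycle. Markers of other cells in the table were mostly higher too. These were 4 of 4 stellate and fibroblast markers, 5 of 6 cholangiocyte markers, 3 of 4 leukocyte markers and the single Kupffer marker, Marco. With DESeq2 2, 4, 1 and 0 of these were called. Summed counts were 5103 to 11702 against 2071 to 3108 for stellate cells and 1627 to 7466 against 427 to 690 for cholangiocytes. Only 4 of 10 leukocyte and 1 of 11 Kupffer and macrophage markers were in the table. The leukocyte median of 1.56 and Marco at 1.35 were not far from the 1.16 of all listed genes. S100a9, 1 of the leukocyte markers, lost its call in 8 of the 9 fits that left out a library. None of the endothelial markers was listed. The part of these cells in the chromatin maps was not tested. No macrophage or leukocyte marker had a region at its promoter, whereas 4 of 6 cholangiocyte, 4 of 8 endothelial and 2 of 8 stellate and fibroblast markers did.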

How the data were processed

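H3K27ac, CTCF and Smc3 ChIP-seq, CUT&Tag of Lamin A/C and H4K20Me3, and ATAC-seq and RNA-seq of mouse liver were used. For the chromatin assays the authors trimmed reads with Trimmomatic 0.39, aligned them to mm10 with HISAT2, removed duplicates and blacklisted regions and reduced ChIP and CUT&Tag reads to the smallest sample. They called ChIP and ATAC peaks with MACS2 2.2.7.1 and CUT&Tag islands with SICER. RNA reads were cleaned with PRINSEQ, aligned to mm10 with HISAT2 and analysed with metaseqR. Reduction is not stated for ATAC-seq, and how replicates were pooled is not given in the sources used here. The deposited lists give the fold enrichment (a ratio to the local background) and the −log10 of the p-value of each region, with a lowest −log10 p of 13.1 for H3K27ac and 15.6 for ATAC. The deposited SICER islands carry a score, which was not used beyond the positions. ATAC regions have no summit, so their middle was used. Of the regions 11 H3K27ac and 10 ATAC entries lay off chromosomes 1 to 19, X and Y and were kept.

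The deposited RNA table holds raw counts and normalised counts (the authors' scaled values, treated as a score) for 3900 genes chosen by the authors, beside their fold changes and p-values, which were not used. Listed counts summed to 5.73 M to 8.23 M in Setd8-LKO and 11.2 M to 12.8 M in WT libraries, which is not their depth. Raw counts were tested in edgeR 4.0.16 by its quasi-likelihood test with the authors' scaling factors (0.752 to 0.855 in Setd8-LKO, 1.03 to 1.25 in WT), a minimum count of 10 and Benjamini-Hochberg adjustment over 3726 genes. SE is from the same fit, in which a library was given a nominal size of 40000000 reads on average. Printed normalised counts are the deposited ones. The table came from sequencing runs A and B named in its columns, and 1 of 4 Setd8-LKO libraries was in run A. The study's methods give the RNA replicates as biological ones collected on the same date, and no source pairs them by number. Same-numbered libraries did not deviate together (correlations -0.054, -0.018, -0.27 and 0.14).

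Overlaps were counted in Python 3.11.15 with annotation GENCODE M21 and pysam 0.24.0 for sequence. Both steps were tested on simulated data. In a simulation of the Setd8-LKO against WT comparison over 3186 tested genes, edgeR found 178 of 200 changed genes and called 10 unchanged ones. The simulated counts were made with the scaling factors that the test used, so the simulation does not check the scaling. Of the planted overlaps 1500 of 1500 were found. Alternatives were DESeq2 1.42.0, its size factors in edgeR, other overlap rules, thresholds and promoter widths, left-out libraries, the run and a replicate block. The regions, genes and lists were chosen with earlier results of these data known. Named were the 6 highest regions of each class, the 3 longest, fixed genes, members of the rarest promoter class of each list and the 3 largest rises and falls of each class. Motifs were searched as letters on both strands of 200-bp windows, with windows moved by 2000 bp as background, and C/EBP, FOXA and other motifs can overlap. Values of some list members and of 1 motif are not reported here.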

Additional observations from a re-analysis of the deposited data

Results flagged for a closer look

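In 12 of 96 groups of libraries the highest or the lowest value stood apart from the others by Dixon's test. Chance alone gives about 1 in 20 groups for continuous values, but not for tied counts near 0. Where all libraries but 1 were tied, as for Rbm24, Gm45225, Sult2a1, Clec2h and Kcnk10, the group was flagged by construction. The number of flagged groups is therefore no measure of an excess over chance. The values are normalised counts of named genes. Setd8-LKO library 3 was apart in 4 groups: Cyp7b1 at 446 (others 125 to 178), Tat at 24027 (8888 to 11076), Ccl2 at 17 (36 to 38) and Kcnk10 at 0 (2 in each of the others). Akr1b7 in Setd8-LKO library 2 was at 1574 (1010 to 1089), and Clec2h in Setd8-LKO library 1 at 2 (0 in the others; log2 fold change -9.69, and -11.78 without it). Among WT libraries, number 4 had Hal at 6267 (10865 to 12426) and S100a8 at 44 (2 to 13), and number 3 had Ly6d at 30 (8 to 13) and Sult2a1 at 3 (0 in the others; log2 fold change 9.30, and 12.04 without it). WT library 5 had Rbm24 at 2 and Gm45225 at 1, where the others were at 0, and without it the log2 fold changes were 10.87 (from 8.60) and 12.62 (from 11.07). These counts are small in the group that is near 0, and the cause was not tested.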

How the results depend on the processing

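The share of regions on the other map depended on the overlap rule. The shared percentages of H3K27ac peaks and of accessible regions were 5.98 and 7.1 when at least 50% of both regions had to overlap, 54.0 and 52.4 when regions within 500 bp counted as shared, 27.1 and 26.7 with the 10000 highest regions of each list, and 42.4 and 44.1 with all regions replaced by 500-bp windows, a setting chosen after the data had been seen. A −log10 p of at least 20 gave 36.0 for H3K27ac. The promoter percentages of H3K27ac shared, H3K27ac only, ATAC shared and ATAC only were 74.8, 57.4, 74.7 and 35.2 under the 50% rule, 58.0, 59.0, 61.3 and 12.4 under the 500-bp rule, 96.1, 92.7, 95.6 and 20.8 with 10000 regions, and 66.8, 46.7, 65.4 and 10.4 with promoters of 500 bp. For H3K27ac only it was 55.3 at a −log10 p of at least 20. The order of the H3K27ac classes turned under the 500-bp rule, and ATAC only was the lowest class throughout these settings. The cause was not tested.

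With DESeq2, genes with both marks that changed numbered 923 in place of 1265 and those that were higher 289 in place of 651. With its size factors in edgeR, chosen after the data had been seen, these were 903 and 273. Leaving out 1 library at a time gave 1196 to 1246 changed genes with both marks and 616 to 639 higher. The replicate block gave 1205 and 631, against 1212 and 634 without it on the same libraries, and changed no call of a count. With the run as a term these were 1198 and 629. Kmt5a and Lmna lost their calls with DESeq2 and with its size factors in edgeR (log2 fold changes 0.27 and 0.44). In all, 40 values of the main results stayed within the interval of the reported share, or within 1.5 times the reported count of genes, and 28 did not. These are unlike rules: most values that stayed were counts of genes, whereas most of the overlap and promoter shares left their interval. With 1 list per assay, the spread between livers behind any overlap is unknown, and the depth of the lists is unknown too.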
